A study of Mus musculus with 12 samples.

Results

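The *Id* genes and the BMP signalling genes *Bmp4*, *Bmp6*, *Bmp7*, *Smad6* and *Smad7* were followed in primary brain cultures of *Myt1l* (+/-) and (+/+) mice. The 9 genes were picked by name from a table of 55397 genes, and all 9 were among the 18264 genes that passed the low-count filter. Cultures came from 3 pups of each genotype at postnatal day 0, and each pup gave 2 libraries. All (+/-) animals, replicates 505, 506 and 508, carried 1 *Myt1l* allele with a deletion of 7 bp in exon 6, and the (+/+) animals, replicates 510, 511 and 513, were their controls without it. That deletion shifts the reading frame at amino acid 11 and reaches a stop codon at amino acid 78. The allele was made by CRISPR/Cas9 in zygotes and is present in every cell type of the culture, not in neurons alone. Cells of both genotypes grew with 5% serum and received Ara-C at 2 µM from day 3 after plating, which kills dividing cells. The labels give C57BL/6J cortex, whereas the study describes these cultures as C57BL/6N hippocampus at day in vitro 11. Which is right was not examined in the counts.

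BMPs are secreted ligands that bind paired type I and type II receptors. The receptors phosphorylate SMAD1, SMAD5 and SMAD9, which enter the nucleus with SMAD4 and switch on target genes. *Id1* to *Id4* are classical targets: ID proteins have a helix-loop-helix domain but no DNA-binding region, and they hold E proteins such as TCF12 away from proneural bHLH factors. *Smad6* and *Smad7* are targets too and encode the inhibitory SMADs that close a feedback loop. In the developing brain, BMP signalling and ID proteins are known to favour astrocytes over neurons and to keep progenitors from differentiating.

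Libraries held 20181477 to 26594444 counts, and the summed counts of an animal were 40642699 to 52833161. Expression is given as CPM, the counts scaled to a common library size, and between genes only as CPM per kilobase of exon. Fold changes are (+/-) against (+/+) on the log2 scale, from the quasi-likelihood test of edgeR with Benjamini-Hochberg adjustment over all genes tested and a threshold of an adjusted p under 0.1. Of all genes tested 0% passed that threshold, 13.2% were higher and 9.11% lower at an unadjusted p under 0.05, and every (+/-) animal lay above every (+/+) animal in 15.5% and below in 13.5%. The median log2 fold change of all genes was 0.003. *Myt1l* itself ran from 89.0 to 165 CPM in (+/-) and from 109 to 147 CPM in (+/+) cultures. The study reports that the *Myt1l* transcript did not decay in its mutant mice, so this range does not check the genotypes. Replicate 511 had 18805 *Xist* counts against 5 to 10 in the other animals, although all animals are labelled male. Libraries of 1 animal differed in the 9 genes by at most 3.28 times their counting SD. Nothing states whether animals shared a litter, so p-values measure the spread between these animals.

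Promoter sequence is shown for members whose regulatory letters bear on BMP signalling. RefSeq promoter windows on GRCm38.p6, the build of the counts, were at hand for 6 of the 9 genes, and each covers 250 bases before and 50 after the RefSeq start site. Both strands were searched for GGCGCC, the GC-rich BMP response element of *Id* genes, for the SMAD-binding letters CAGAC, for the MYT1L core AAAGTT and for the E-box CANNTG. The stretch shown for *Id4* is the 250 bases before the RefSeq start site at chr13:48260866-48261115, plus strand, which lies wholly before the deposited *Id4* gene. The other stretches are 30 bases around each match, with capitals marking GGCGCC or CAGAC on either strand.
Id4: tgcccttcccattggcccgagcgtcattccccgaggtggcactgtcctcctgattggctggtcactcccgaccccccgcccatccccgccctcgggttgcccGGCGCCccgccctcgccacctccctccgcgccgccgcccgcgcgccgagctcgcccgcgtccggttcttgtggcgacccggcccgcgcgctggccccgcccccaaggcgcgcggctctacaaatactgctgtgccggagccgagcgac
Id2: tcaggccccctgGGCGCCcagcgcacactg
Id3, first: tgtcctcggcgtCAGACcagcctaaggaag
Id3, second: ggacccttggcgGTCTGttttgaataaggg
Bmp6: agcgcacgtgtgCAGACtgcgagtgaccgt
The *Id2* stretch is chr12:25096306-25096335 on the minus strand, and the *Bmp6* stretch is chr13:38345585-38345614 on the plus strand. Those of *Id3* are chr4:136143643-136143672 and chr4:136143742-136143771, plus strand. Unlike the *Id4* window, these stretches lie inside the deposited gene spans, because RefSeq places the start site 325 bases into the deposited *Id3*, 1048 bases into *Id2* and 609 bases into *Bmp6*. Counting from the RefSeq start site to the first base of a match, GGCGCC stood at position -148 of *Id4* and -231 of *Id2*, and 11.9% of 32851 promoter windows of the same length hold it. CAGAC stood at -167 and -68 of *Id3* and at -119 of *Bmp6*, a match that 49.6% of windows hold. AAAGTT was in none of the 6 windows, against 14.1% of all windows. E-box letters, held by 72.3% of windows, were in *Id2*, *Bmp4*, *Bmp6* and *Smad6* and not in the windows of *Id3* and *Id4*. These matches are letters in a window and say nothing of a factor bound there.

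Among the *Id* genes, *Id4* and *Id3* were the most abundant and also had the higher means in (+/-) cultures, while *Id1* and *Id2* lay close together in both genotypes. None passed the adjusted threshold. *Id4* (ENSMUSG00000021379.2, chr13:48261228-48266026, plus strand) encodes the family member best known from astrocytes and neural progenitors. Its level was 498, 395 and 407 CPM in (+/-) replicates 505, 506 and 508, and 307, 283 and 374 CPM in (+/+) replicates 510, 511 and 513. Every (+/-) animal lay above every (+/+) animal, with replicate 513 the nearest, and no other member separated the genotypes in this way. The log2 fold change was 0.43 (95% interval 0.09 to 0.77, edgeR adjusted p = 0.18), and the exact two-sided permutation test gave p = 0.1, the smallest that 3 animals against 3 allow. DESeq2 on the same counts called *Id4* higher (adjusted p = 0.074), as it did 7.42% of all genes it tested.

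*Id3* (ENSMUSG00000007872.3, chr4:136143497-136145755, plus strand) is an immediate target of BMP receptors in many cell types. It stood at 348, 315 and 242 CPM in (+/-) and at 206, 200 and 277 CPM in (+/+) cultures, in the same order of replicates. Replicates 505 and 506 were above all controls, whereas 508 fell below the control 513. The log2 fold change of 0.40 had a 95% interval of -0.01 to 0.82 and an edgeR adjusted p of 0.23.

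*Id1* (ENSMUSG00000042745.9, chr2:152736251-152737410, plus strand), the *Id* gene most used as a readout of BMP activity, was at 92.9, 90.2 and 67.3 CPM in (+/-) and at 91.1, 70.1 and 74.1 CPM in (+/+) cultures. Animals of both genotypes were interleaved. Its log2 fold change was 0.09 (95% interval -0.27 to 0.44, edgeR adjusted p = 0.72). *Id2* (ENSMUSG00000020644.9, chr12:25093799-25097140, minus strand), which is also expressed in postmitotic neurons, was the steadiest of the family at 114, 99.2 and 101 CPM against 101, 89.1 and 97.8 CPM. Replicate 505 stood clear of the controls and 508 was level with the control 510. The log2 fold change was 0.13 (95% interval -0.09 to 0.35, edgeR adjusted p = 0.41). These intervals leave room for log2 changes of up to 0.44 for *Id1* and 0.35 for *Id2*, so a difference of the size seen for *Id4* is within the interval of *Id1* and outside that of *Id2*.

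**Figure D1:**
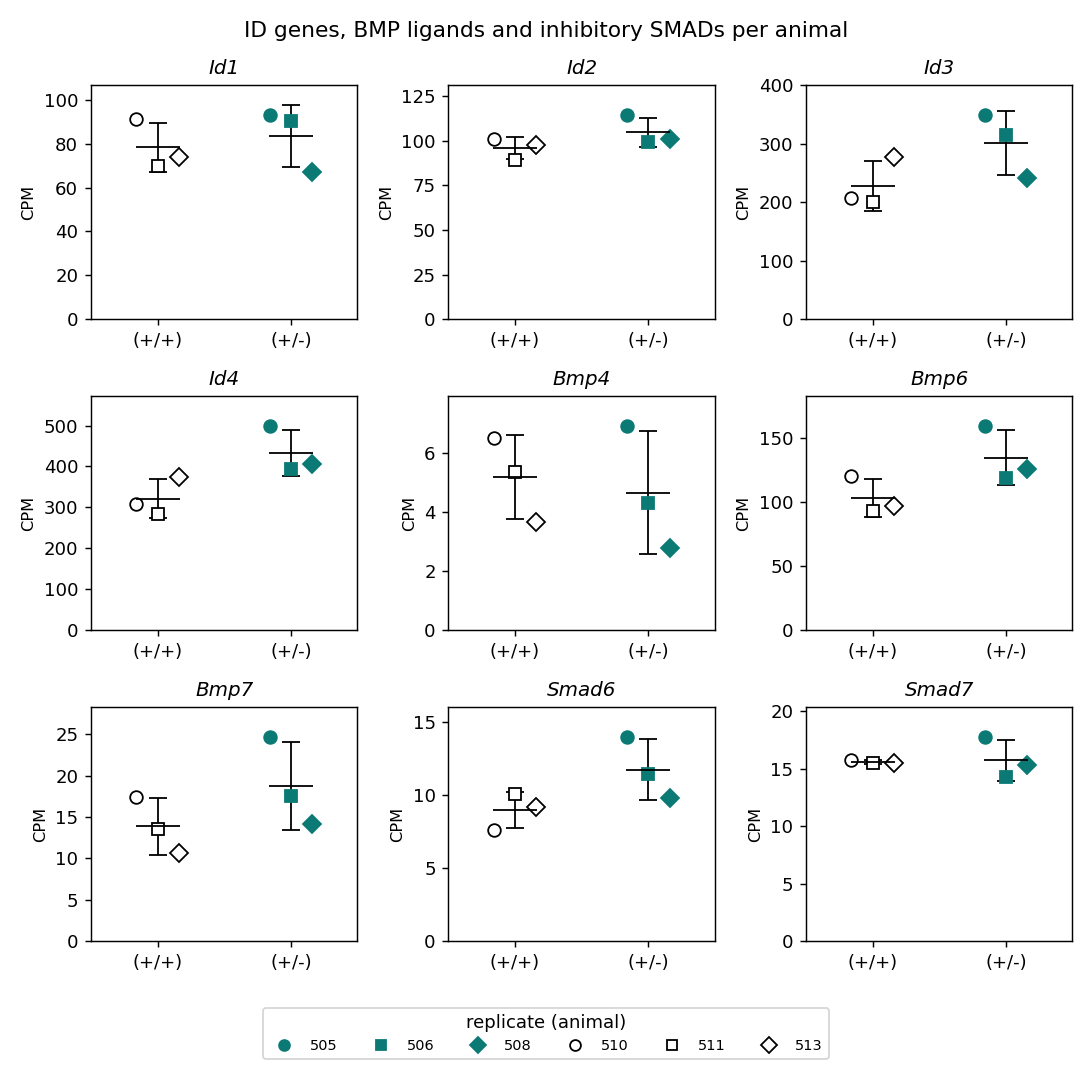
Level of the 9 member genes (y axis, CPM, from 0) in (+/+) animals (open symbols) and (+/-) animals (filled teal symbols), 1 symbol per animal, with the mean (line) and SD (error bar) of 3 animals. *Id4* alone has all 3 (+/-) animals above all 3 (+/+) animals, and *Smad7* lies between 14.3 and 17.7 CPM in all 6.

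Per kilobase of exon, *Id3* averaged 148 CPM over the 6 animals, *Id4* 98.1, *Id1* 69.8 and *Id2* 41.2 CPM per kilobase. This order held in 6 of 6 animals, although the ranges over animals overlapped for *Id3* and *Id4* and for *Id4* and *Id1*. The summed level of the 4 *Id* genes was 396 ± 55.2 CPM per kilobase (SD, n = 3) in (+/-) and 318 ± 37.0 in (+/+) cultures, and it did not separate the genotypes (exact two-sided permutation p = 0.2). *Id3* supplied 42.4% ± 2.40 of that sum in (+/-) and 39.9% ± 3.46 in (+/+) cultures (SD, n = 3). The share of *Id4* was 28.5% ± 2.62 against 26.2% ± 0.997. *Id1* gave 18.1% ± 1.32 against 21.4% ± 3.50, and *Id2* 10.9% ± 1.08 against 12.5% ± 1.03. Exact two-sided permutation tests gave an adjusted p of 0.4 for each of the 4 shares, in a design of 3 against 3 animals that cannot go below p = 0.1, so the adjusted threshold could not be reached.

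**Figure D2:**
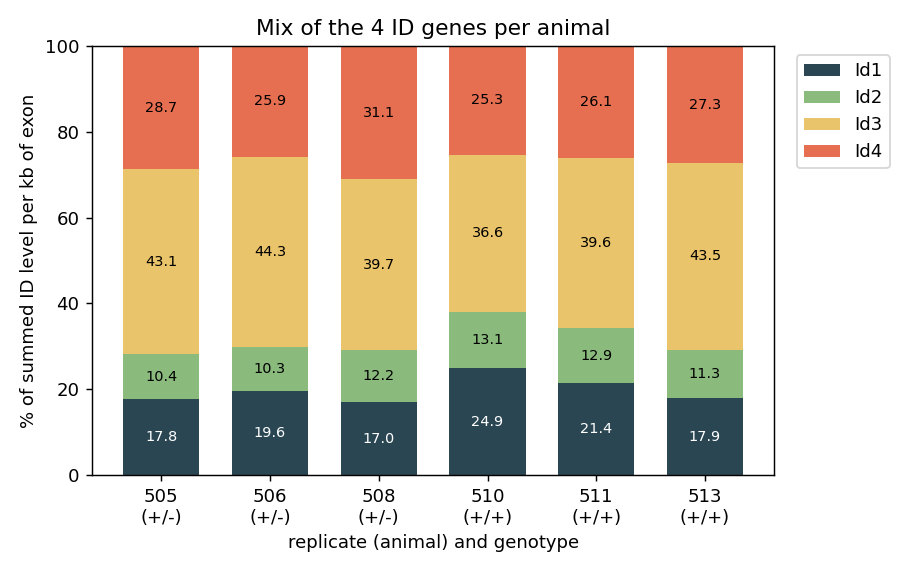
Share of each *Id* gene in the summed *Id* level per kilobase of exon (y axis, %) in each animal (x axis). *Id3* is the largest share in every animal, from 36.6% to 44.3%, and *Id2* the smallest, from 10.3% to 13.1%.

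Of the 3 ligands, *Bmp6* and *Bmp7* had higher means in (+/-) cultures and *Bmp4* a lower one, and none passed the adjusted threshold. *Bmp6* (ENSMUSG00000039004.6, chr13:38345107-38500302, plus strand), known also as the ligand that controls hepcidin in the liver, was at 159, 119 and 126 CPM in (+/-) and at 121, 93.4 and 96.7 CPM in (+/+) cultures. Replicates 505 and 508 exceeded every control, and 506 lay just under the control 510. The log2 fold change was 0.38 (95% interval 0.04 to 0.72, edgeR adjusted p = 0.20). With *Id4*, *Bmp6* made 2 of 9 members that were higher at an unadjusted p under 0.05, beside 13.2% of all genes.

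*Bmp7* (ENSMUSG00000008999.7, chr2:172868012-172940321, minus strand), known from meninges and choroid plexus of the developing brain, was at 24.6, 17.6 and 14.2 CPM against 17.4, 13.5 and 10.6 CPM. Each genotype spread widely, and the log2 fold change of 0.44 had a 95% interval from -0.12 to 1.00 (edgeR adjusted p = 0.29). *Bmp4* (ENSMUSG00000021835.15, chr14:46383520-46390669, minus strand), a ligand that drives neural progenitors towards astrocytes in culture, was the lowest member at 6.90, 4.30 and 2.78 CPM against 6.51, 5.34 and 3.68 CPM. Its highest and its lowest animal were both (+/-), its log2 fold change was -0.15, and the 95% interval ran from -0.95 to 0.64 (edgeR adjusted p = 0.79). At 113 to 339 counts per animal, this gene had the least depth of the 9.

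Both inhibitory SMADs were low and behaved differently in their means. *Smad6* (ENSMUSG00000036867.7, chr9:63953076-64022059, minus strand), which acts mainly on BMP receptors, stood at 13.9, 11.4 and 9.81 CPM in (+/-) and at 7.63, 10.1 and 9.18 CPM in (+/+) cultures. Replicate 508 fell below the control 511, and the log2 fold change was 0.39 (95% interval -0.0004 to 0.78, edgeR adjusted p = 0.22). *Smad7* (ENSMUSG00000025880.11, chr18:75367529-75395935, plus strand), which restrains TGF-beta and activin receptors as well, stood at 17.7, 14.3 and 15.3 CPM against 15.8, 15.5 and 15.5 CPM. The 3 control animals differed by a coefficient of variation of only 1.19%. Its log2 fold change was 0.02 with a 95% interval of -0.24 to 0.27 (edgeR adjusted p = 0.94). Whether *Smad6* and *Smad7* differed from each other in their response was not tested.

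Below the *Id* genes, the order per kilobase of exon was *Bmp6* at 30.6, *Bmp7* at 4.06, *Smad7* at 3.47, *Smad6* at 3.23 and *Bmp4* at 2.19 CPM per kilobase over the 6 animals. *Bmp6* lay above *Bmp7* in 6 of 6 animals with no overlap of their ranges. *Bmp7* and *Smad7*, and *Smad7* and *Smad6*, kept their order in 4 of 6 animals each, so these neighbours cannot be ranked beyond the spread. The spans of *Id4*, *Bmp4* and *Bmp6* overlap annotated genes on the other strand, and no source used here gives whether reads were counted by strand.

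Replicate 505 was the highest of the 6 animals for all 9 members. It also had the lowest sum of neuron markers and the highest sum of each of the other 9 marker lists. Without 505 the log2 fold change of every member was lower, for *Id4* 0.32, for *Id3* 0.29, for *Bmp6* 0.24, for *Smad6* 0.25 and for *Bmp7* 0.19. Without 513 edgeR called *Id4* (log2 fold change 0.54, adjusted p = 0.063) and *Id3* (0.55, adjusted p = 0.085), in a fit that called 18.3% of all genes. *Id4* stayed positive in each of the 6 fits with 1 animal left out, from 0.32 to 0.54. Without 511, the animal with *Xist* counts, *Id4* was at 0.35 and *Bmp6* at 0.31, and neither had an unadjusted p under 0.05. The 1 member that had was *Smad6*, in a fit where 7.02% of all genes were higher at that p. Only 511 had high *Xist* counts, so genetic sex as a covariate sets 511 apart much as leaving it out does. With that covariate in edgeR *Smad6* was again the 1 member (6.92% of all genes), which is no separate result.

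**Figure D3:**
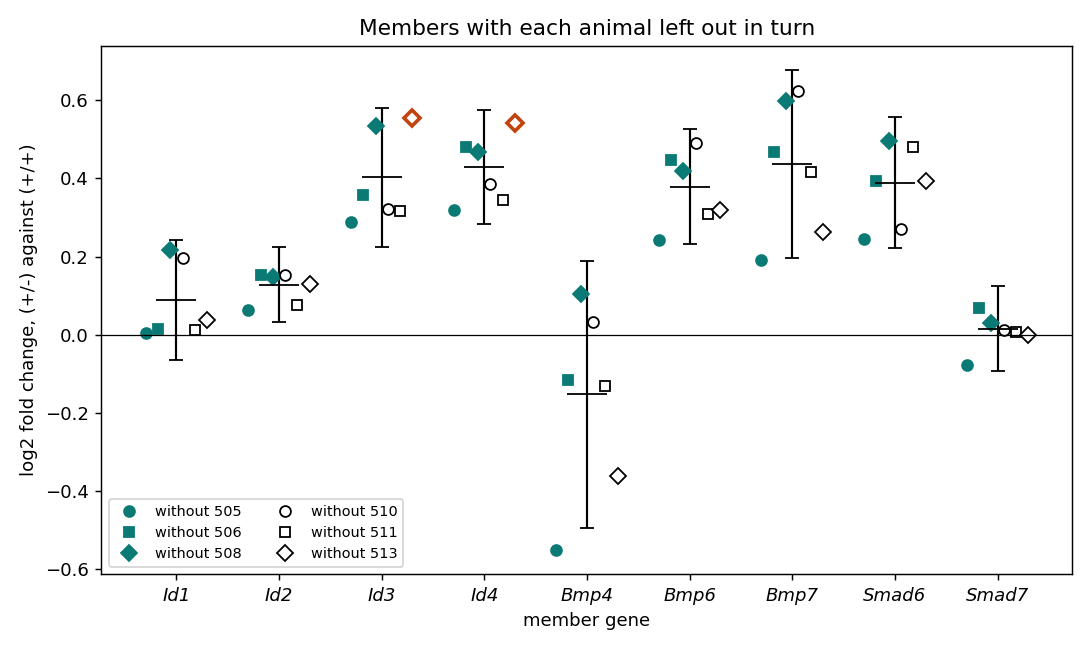
Log2 fold change of each member (x axis) from edgeR with all 6 animals (black line, error bar 1 standard error) and with 1 animal left out (symbols, filled for (+/-) and open for (+/+) animals), with an orange outline where the adjusted p is under 0.1. *Id3* and *Id4* have an outlined symbol, in the fit without 513, and *Bmp4* and *Smad7* have values on both sides of 0.

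The list of known BMP targets holds 14 genes, 6 of them members, and 14 of 14 were positive in log2 fold change, beside 50.4% of all genes. Their median was 0.37, against 0.003 over all genes. This list was chosen with earlier results of these data known, so the count is no independent test. The count of positive targets was 12 with DESeq2, 12 without 505 and 12 without 513. Of the 14, 5 were higher at an unadjusted p under 0.05, beside 13.2% of all genes, and 0 passed the adjusted threshold. The 8 targets that are not members had a median of 0.38, the lowest being *Nog*, encoding the antagonist noggin, at 0.006, with -0.012 in DESeq2. *Msx1*, a homeobox gene of the dorsal midline and choroid plexus, had 22.3, 17.0 and 17.8 CPM in (+/-) and 10.2, 10.3 and 12.1 CPM in (+/+) cultures. The genotypes did not overlap, at a log2 fold change of 0.81 (standard error 0.14, edgeR adjusted p = 0.17). *Hey1*, a bHLH repressor shared by the NOTCH and BMP pathways, was apart in the same way, at 123, 103 and 112 CPM against 77.7, 73.1 and 96.6 CPM (log2 fold change 0.45, standard error 0.13, edgeR adjusted p = 0.17). DESeq2 called *Msx1* (adjusted p = 0.00032) and *Hey1* (adjusted p = 0.049) higher besides *Id4*, as it did 7.42% of all genes it tested. *Bambi*, a decoy receptor, was at a log2 fold change of 0.41 and *Atoh8*, a bHLH factor, at 0.35, and both overlapped between genotypes. With fewer than 6 animals or with genetic sex in the fit, 2 to 8 targets were higher at an unadjusted p under 0.05. In those fits 6.7% to 18.1% of all genes were higher at that p. Without 513 edgeR called 6, *Id3*, *Id4*, *Bambi*, *Atoh8*, *Msx1* and *Hey1*, in a fit that called 18.3% of all genes.

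In each of the other BMP lists, log2 fold changes had both signs. Of 20 listed ligands of the BMP and GDF families 15 were tested, 7 with a positive and 8 with a negative value. *Gdf1* and *Bmp6* were the most abundant ligands. *Bmp6* made up 36.1% ± 3.99 of the summed ligand level per kilobase in (+/-) and 26.0% ± 2.41 in (+/+) cultures (SD, n = 3), from 33.2% to 40.6% against 23.5% to 28.3% (exact two-sided permutation p = 0.1, the smallest possible). In the same sum *Gdf1* averaged 31.3% in (+/-) and 40.6% in (+/+) cultures, and *Gdf15* 4.31% and 9.40%. The *Bmp6* share thus depends on the levels of these genes too, and the CPM of *Bmp6* overlapped between genotypes. With *Gdf1* left out of the sum, a choice made after seeing the data, the *Bmp6* shares were 52.5% ± 1.01 and 43.9% ± 3.20. *Gdf1*, a ligand that needs NODAL-type partners, was lower in every (+/-) animal, at 32.0, 43.7 and 44.3 CPM against 58.4, 61.6 and 47.6 CPM. Its log2 fold change was -0.48 (edgeR adjusted p = 0.17, DESeq2 adjusted p = 0.068, with 4.33% of all genes called lower by DESeq2). Its gene shares its transcript with *Cers1*, so its counts are uncertain. *Bmp5* was at 6.81 CPM in 505 and at 0.28 to 1.06 CPM in the other 5 animals, and its log2 fold change of 2.45 became 0.94 without 505. *Gdf10* was at 0.36, and at 0.23 without 508. *Gdf15*, a stress-induced cytokine, was at -1.31 with 1 control, 510, at 35.3 CPM and the others at 5.21 to 13.8 CPM, and at -0.50 without that control. Without 513 edgeR called *Gdf1* (adjusted p = 0.069) and *Gdf15* (adjusted p = 0.053) lower, in the fit that called 18.3% of all genes.

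Receptors and co-receptors gave 10 tested genes of 11, with 4 positive and 6 negative. *Acvr2a*, a type II receptor, had a log2 fold change of -0.31 with no overlap between genotypes, and so had *Rgmb*, a BMP co-receptor, at -0.32, which became -0.18 without 505. *Eng*, the endothelial co-receptor, was at 0.92, and at 0.29 without 505. *Bmpr1b*, a type I receptor, was at 0.56 with overlap, at 0.36 without 510 and at 0.93 without 513. None of these receptor genes passed the adjusted threshold with all 6 animals. Without 513 edgeR called *Bmpr1b* (adjusted p = 0.028) and *Acvr2a* (adjusted p = 0.061), in the fit that called 18.3% of all genes.

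BMP antagonists gave 18 tested genes of 21, of which 10 were positive and 8 negative. *Vwc2l* at -1.38 and *Chrd*, encoding chordin, at -0.30 were lower in every (+/-) animal, and *Nbl1* at 0.24 was higher in every one. The level of *Vwc2l* was low, at 0.26, 0.46 and 0.61 CPM in (+/-) and at 1.29, 1.25 and 0.94 CPM in (+/+) cultures. DESeq2 called *Vwc2l* lower (adjusted p = 0.017), as it did 4.33% of all genes it tested. Without 513 edgeR called *Vwc2l* too (adjusted p = 0.049), in the fit that called 18.3% of all genes.

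Of the 8 SMADs 6 were positive. *Smad5*, a receptor-activated SMAD of the BMP branch, was higher in every (+/-) animal, at 127, 95.0 and 106 CPM against 79.7, 68.3 and 90.9 CPM (log2 fold change 0.46, edgeR adjusted p = 0.17; DESeq2 adjusted p = 0.068). *Smad4*, the common partner, was at 0.18 and *Smad2*, of the TGF-beta branch, at -0.18, each with no overlap, while *Smad9* at 0.16 overlapped and was at -0.0047 without 505. Cofactors and brakes split 6 positive to 5 negative among 11. They were led by *Zfp423*, a zinc finger partner of BMP SMADs, at 0.57, *Tmem100* at 1.03, *Skil* at -0.19 and *Ppm1a*, a SMAD phosphatase, at -0.17. *Zfp423*, *Tmem100* and *Skil* overlapped between genotypes, and *Ppm1a* did not. With all 6 animals DESeq2 called *Zfp423* higher (adjusted p = 0.080), as it did 7.42% of all genes it tested. Without 505 *Ppm1a* was at -0.098. In the fit without 513, which called 18.3% of all genes, edgeR called *Smad5* (adjusted p = 0.068), *Zfp423* (adjusted p = 0.022) and *Tmem100* (1.91, adjusted p = 0.025). Taking the BMP lists as 1 set, 70 genes were tested, 41 positive and 29 negative, beside 50.4% of all genes positive. At an unadjusted p under 0.05, 13 of the 70 were higher and 7 lower, against 13.2% and 9.11% of all genes. Every (+/-) animal lay above every (+/+) animal in 9 of the 70 and below in 9, against 15.5% and 13.5% of all genes. Such separation was thus no more frequent than over all genes. Of the 6 genes of the TGF-beta branch 5 were positive, led by the receptors *Tgfbr2* at 0.68 and *Tgfbr1* at 0.40, with *Tgfbr3* at 0.18 and *Tgfb1* at 0.33. Without 505 these were 0.43, 0.21, 0.038 and -0.0076 in that order, and without 513 edgeR called *Tgfbr2* (adjusted p = 0.068). DESeq2 called *Tgfbr2* higher with all 6 animals (adjusted p = 0.026).

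The bHLH partners of ID proteins gave 13 tested genes of 16, of which 6 were positive and 7 negative. *Neurod2*, a factor of maturing excitatory neurons, was lower in every (+/-) animal, at 27.1, 55.3 and 42.5 CPM against 75.4, 95.4 and 61.2 CPM (log2 fold change -0.89, edgeR adjusted p = 0.17; DESeq2 adjusted p = 0.020). *Neurod4*, at -1.83, was low at 0.088 to 1.09 CPM over the 6 animals, and DESeq2 called it lower (adjusted p = 0.042). Of all genes it tested, DESeq2 called 4.33% lower. *Tcf12*, 1 of the E proteins in the list, was at 0.29 and *Olig1*, of the oligodendrocyte lineage, at 0.80, both with overlap. *Tcf12* was at 0.18 without 505, *Olig1* at 0.53 without 510 and 1.45 without 513. In the fit without 513, which called 18.3% of all genes, edgeR called *Neurod2* (adjusted p = 0.071), *Neurod4* (adjusted p = 0.055) and *Olig1* (adjusted p = 0.013).

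Summed marker genes of several cell types lay apart between the genotypes beside these values, although edgeR called no single marker with all 6 animals. DESeq2 called 10 of 10 ependymal, 10 of 12 choroid plexus, 7 of 10 dividing-cell and 6 of 11 microglial markers higher. It called 3 of 12 neuron markers and 1 endothelial marker lower, and 1 or 2 markers of each other list higher. Of all genes it tested, DESeq2 called 7.42% higher and 4.33% lower. In bulk cultures, fewer cells of a type and less RNA per cell cannot be told apart. All 12 neuron markers had a negative log2 fold change, and their sum ran from 2835 to 5000 CPM, against 5263 to 5921 CPM in (+/+). Of the 12 astrocyte markers 9 were positive (median log2 fold change 0.10), and their sum ran from 12108 to 13337 CPM in (+/-) and from 8773 to 13303 CPM in (+/+) cultures, with overlap. *Gfap* made up 31.3% to 48.4% of that sum, and in the controls it was at 2769 CPM in 510, 3233 CPM in 511 and 6156 CPM in 513. Replicate 513 was the highest control for 10 of the 12 astrocyte markers, not for *Sox9* and *Slc1a3*, and it was the highest control for *Id3* and *Id4*. It was also the highest control in the ependymal, dividing-cell and oligodendrocyte lineage sums. In the sums of neurons, choroid plexus, meninges, endothelial cells, mural cells and microglia it was not. All 10 ependymal markers were positive, with a sum of 1050 to 1239 against 573 to 845 CPM. Of the choroid plexus markers 11 of 12 were positive, with a sum of 432 to 1496 against 114 to 283 CPM. Meningeal markers, 11 of 11 tested positive, summed to 1814 CPM in 505, to 443 and 557 CPM in the other (+/-) animals and to 202 to 914 CPM in (+/+). Among dividing-cell markers 9 of 10 were positive (72.8 to 101 against 43.0 to 64.0 CPM). Microglial markers were positive in 11 of 11 tested, at 148 to 283 against 105 to 140 CPM, with *Siglech* at 0 counts throughout. Endothelial (6 of 8 positive, 40.2 to 70.4 against 29.9 to 42.7 CPM), mural (6 of 7, 366 to 576 against 330 to 409 CPM) and oligodendrocyte lineage sums (6 of 8, 241 to 293 against 176 to 235 CPM) were highest in 505. Neuron markers were thus present in all 6 cultures, together with abundant astrocyte markers. The part of these cell types in the values of the members was not tested.

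**Figure D4:**
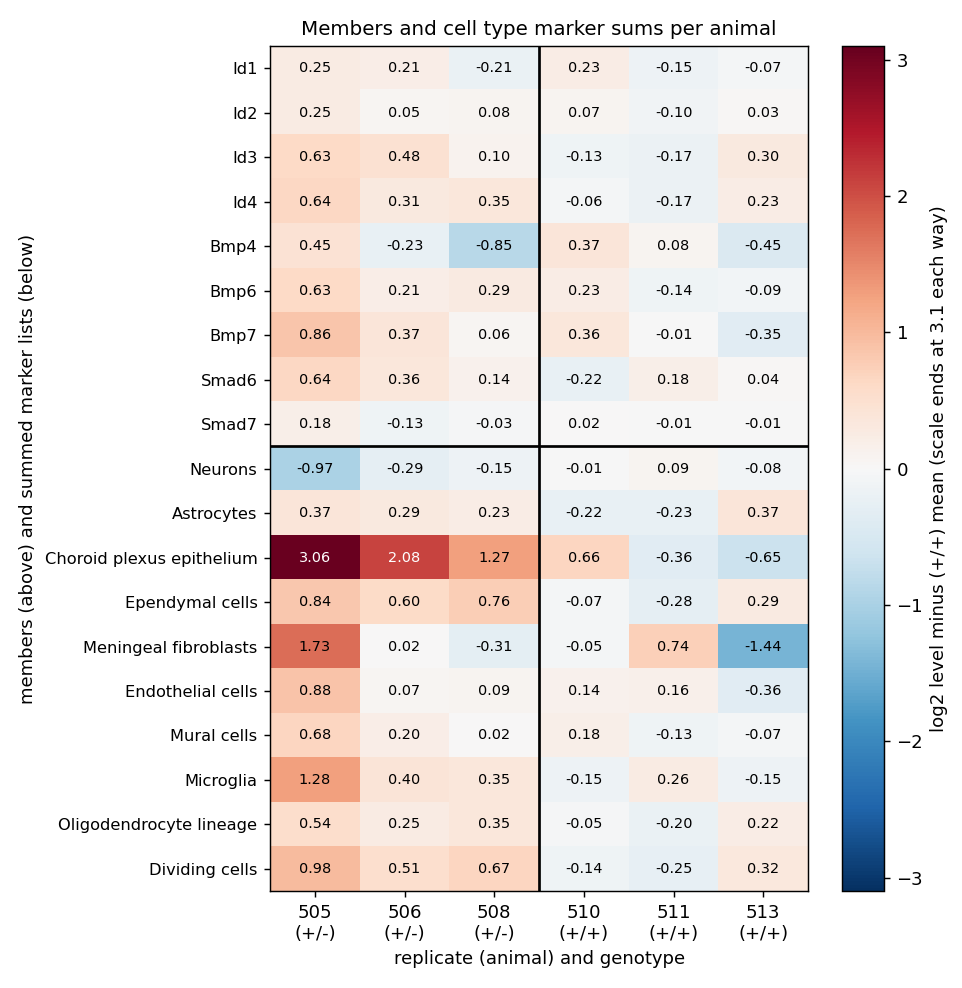
Log2 level in each animal (columns) minus that of the (+/+) mean, for the 9 members (rows above the line) and 10 summed marker lists (rows below), in red for higher and blue for lower. Replicate 505 is the highest animal in all 9 member rows and in the rows of choroid plexus (3.06) and meningeal (1.73) markers, and the lowest for neurons (-0.97).

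Patterns over the 6 animals were matched among 12485 genes with a mean of at least 5 CPM, by the root mean square (RMS) difference of log2 CPM after centring each gene. Nearest to *Id4* were *Decr1*, *Zfp521* and *Dock1*, at RMS differences of 0.028 to 0.030, where *Id4* itself varied by 0.27. *Casq1*, *Gpx3* and *Il17rc* were nearest to *Id3* (0.053 to 0.057), *Gm15417*, *Nxt1* and *S100a16* to *Id1* (0.041 to 0.052), and *Fam76a*, *Smarca5* and *Sox9* to *Id2* (0.014 to 0.025). The nearest genes of *Bmp6* were *Osbpl3*, *3300002A11Rik* and *Pgm2* (0.033 to 0.058), and those of *Bmp7* were *Adora2b*, *Zfp36* and *Car12* (0.069 to 0.10). Among the genes nearest to *Bmp4* were *Crispld2* and *Vdr* (0.065 and 0.13). *Smad6* was most like *Tnfrsf19*, the receptor gene *Tgfbr1* and *Egr1* (0.071 to 0.079), and *Smad7* like *Sema6a*, *Syne2* and *Mad2l1* (0.016 to 0.026). No member was among the 3 nearest genes of another.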

How the data were processed

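RNA was sequenced from 12 libraries of 6 animals, as 100 bp paired-end reads of strand-marked (dUTP) libraries. The authors mapped reads to mm10 with STAR and deposited raw counts per gene and library; no source used here names the counting tool. Deposited normalised counts and a table of the authors' own fold changes and p-values were not used. The 9 members and all gene lists were chosen with earlier results of these data known.

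Each animal's 2 libraries share its number and nothing states how they differ, so their counts were added up. CPM are counts per TMM-scaled library size. In R 4.3.3 with edgeR 4.0.16, filterByExpr by genotype left 18264 of 55397 genes. TMM normalisation and the quasi-likelihood test, with no covariate, were followed by Benjamini-Hochberg adjustment and a threshold of an adjusted p under 0.1. Single values and shares were compared by exact two-sided permutation. DESeq2 1.42.0, limma 3.58.1 (voom), DESeq2 size factors, other filters, either library alone, genetic sex (over 1000 *Xist* counts) as a covariate, a threshold of 0.05 and each animal left out were the alternatives. The edgeR, DESeq2 and voom steps were tested on simulated data. Totals per animal of 40642699 to 52833161 counts set the precision, and *Bmp4*, with 113 to 339 counts, had the least.

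Genes named in the text are the 9 members, up to 4 other genes with the smallest p of each pathway list, the 3 genes most alike each member, and *Gfap* as the strongest astrocyte marker. *Siglech*, *Slc1a3*, *Nog*, *Xist*, *Myt1l* and *Cers1* were named after their values or positions were seen. Coordinates are those of the deposited table on mm10, and promoter windows come from RefSeq on GRCm38.p6. Some genes that this rule names, and a *Smad7* promoter, are not reported here, and those of *Id1* and *Bmp7* were not analysed here.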

Additional observations from a re-analysis of the deposited data

How the results depend on the processing

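Of the 9 members, *Id1*, *Id2*, *Id3*, *Id4*, *Bmp6*, *Bmp7* and *Smad6* kept a positive log2 fold change in each of 16 alternatives. *Bmp4* turned to 0.10 without (+/-) replicate 508 and to 0.03 without (+/+) replicate 510, and with 1 animal left out it ran from -0.55 to 0.10. *Smad7* turned to -0.0013 with DESeq2, -0.0398 with library 1 alone, -0.00072 with DESeq2 and genetic sex, -0.078 without (+/-) replicate 505 and -0.00064 without (+/+) replicate 513, with a highest value of 0.069 when 1 animal was left out. Members past the adjusted threshold were 1 with DESeq2 and 0 to 2 with 1 animal left out, and 0 in the other alternatives. Members higher at an unadjusted p under 0.05, beside the share of all genes in the same fit, numbered 4 with DESeq2 (13.1%), 5 with no low-count filter (9.42%), 4 with library 1 alone (12.4%), 1 with library 2 alone (12.7%), 1 with genetic sex in edgeR (6.92%) or in DESeq2 (7.43%), and 1 to 5 with 1 animal left out (6.7% to 18.1%). Of the 14 BMP targets 3 were higher by that measure with genetic sex in edgeR or in DESeq2, and 2 to 8 with 1 animal left out. *Nog* turned to -0.00497 with DESeq2 size factors, -0.012 with DESeq2, -0.00417 with no low-count filter and -0.0816 with library 2 alone, and ran from -0.079 to 0.0488 with 1 animal left out (-0.0461 without (+/-) replicate 506). Likewise *Smad9* ran from -0.00469 to 0.249 and *Tgfb1* from -0.00756 to 0.499. The cause of these shifts was not tested. Over all genes, edgeR called 0 higher and 0 lower, against 2416 and 1664 at an unadjusted p under 0.05; DESeq2 called 1324 higher and 772 lower, edgeR with no low-count filter 1021 and 454, and edgeR without (+/+) replicate 513 called 2294 and 1109. No paired analysis was possible because the animals carry different numbers in both genotypes, and the number that repeats in the labels is that of a library within an animal. With 3 animals per genotype, exact tests cannot go below p = 0.1.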
